A study of Homo sapiens with 3 samples.

Results

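The 49 genes described here encode parts of the mitotic machinery: the kinases and motors of the spindle, the kinetochore and its checkpoint, the chromosomal passenger complex, the factors that trigger anaphase, the proteins of cytokinesis, the condensin I complex with topoisomerase II alpha, and FOXM1, a transcription factor that drives many of them. They were named as a list of symbols by function, with earlier results of these data known, and each symbol matched 1 row of the 58381 genes in the count table. The libraries were made from T24, a cell line of human bladder carcinoma, and each of the 3 conditions was represented by 1 of them. Ctrl was the library whose treatment the labels give as Empty, RT was the control exposed to ionising radiation, and RT + shHDAC6 was the irradiated library with HDAC6 knocked down by a lentiviral shRNA. The comparison of RT with Ctrl addresses the response of the mitotic genes to irradiation, and that of RT + shHDAC6 with RT their response to the shRNA against HDAC6, a cytoplasmic deacetylase whose substrates include alpha-tubulin, under irradiation.

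The labels describe lentiviral infection with the HDAC6 shRNA or with the control vector pLKO.1, puromycin selection and a single dose of 10 Gy from a caesium source; the time between irradiation and RNA extraction is not given in the sources used here. The methods of the study also name a control vector, whereas its results speak of parental cells, so whether Ctrl and RT carried the vector cannot be told apart here. The knockdown library was not matched by a knockdown library without irradiation, and the shRNA was represented by 1 sequence in 1 cell line.

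In dividing cells most of these genes are transcribed in a wave that starts in late S phase and peaks in G2 and mitosis. Their promoters are known to be bound by the MuvB core, which acts as part of the repressive DREAM complex in resting or damaged cells and together with B-MYB and FOXM1 as an activator before mitosis. MuvB is recruited by the cell cycle genes homology region (CHR), most often read as TTTGAA, and NF-Y by CCAAT boxes upstream of it. In tumours of the bladder and of other epithelia, high levels of these genes are widely used as a sign of proliferation.

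Promoter sequences were available for 41 of the 49 members, and are shown first because both of these motifs can be read in them. RefSeq windows reaching from 250 bases before to 50 bases after the transcription start (assembly GRCh38.p14) were searched on both strands. TTTGAA was found in 30 of the 41 members (73.2%), against 18.2% of the 27305 genes with a window. CCAAT was found in 30 members (73.2%), against 39.7% of all genes, and both motifs in 23 members (56.1%), against 8.37%. Only CENPE, CENPI, KIF2C and CDCA5 held neither of them in this window (9.76%, against 50.5% of all genes). The GC box GGGCGG was found in 68.3% of members and 48.3% of all genes, and the E2F-type site TTCCCGC in 12.2% and 7.82%. Of the 41 members, 17 (41.5%) had TTTGAA within the 50 bases before the start, against 3.22% of all genes. In the others with TTTGAA it lay further upstream, as in TOP2A (bases -194 and -151), or after the start, as in CENPF (base 40). These are matches of letters, not measured binding. AURKA, FOXM1, CENPH, UBE2C, TPX2, BUB3, TTK and BIRC5 had no entry in the sequence table.

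The 120 bases before the start are given 5′ to 3′ on the strand of the gene for 8 members that lie at the ends of the comparisons below, or, for PLK1, as the member with the usual arrangement of the motifs. Capitals mark TTTGAA or TTCGAA (a CHR variant) and CCAAT on either strand, so that TTCAAA and ATTGG are the same motifs on the opposite strand.
PLK1, chr16:23678769-23678888, plus strand: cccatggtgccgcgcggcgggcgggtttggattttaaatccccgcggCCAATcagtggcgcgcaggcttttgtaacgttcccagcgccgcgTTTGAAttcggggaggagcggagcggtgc
DLGAP5, chr14:55191586-55191705, minus strand: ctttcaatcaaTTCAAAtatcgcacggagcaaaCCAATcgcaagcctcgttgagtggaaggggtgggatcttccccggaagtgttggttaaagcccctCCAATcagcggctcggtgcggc
KIF20A, chr5:138178992-138179111, plus strand: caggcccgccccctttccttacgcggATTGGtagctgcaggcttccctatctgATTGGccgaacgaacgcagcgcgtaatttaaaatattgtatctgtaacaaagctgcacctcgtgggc
HMMR, chr5:163460512-163460631, plus strand: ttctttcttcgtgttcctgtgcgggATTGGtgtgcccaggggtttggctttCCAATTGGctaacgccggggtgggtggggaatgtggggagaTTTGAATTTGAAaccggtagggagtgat
ESPL1, chr12:53268179-53268298, plus strand: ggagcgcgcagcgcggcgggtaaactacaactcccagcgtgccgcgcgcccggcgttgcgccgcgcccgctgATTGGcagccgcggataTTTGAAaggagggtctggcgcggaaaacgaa
CDCA5, chr11:65084041-65084160, minus strand: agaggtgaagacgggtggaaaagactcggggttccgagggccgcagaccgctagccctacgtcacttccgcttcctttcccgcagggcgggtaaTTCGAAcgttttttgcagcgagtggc
INCENP, chr11:62123891-62124010, plus strand: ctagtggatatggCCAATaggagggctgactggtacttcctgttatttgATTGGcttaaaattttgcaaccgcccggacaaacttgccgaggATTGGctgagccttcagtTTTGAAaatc
ANLN, chr7:36389742-36389861, plus strand: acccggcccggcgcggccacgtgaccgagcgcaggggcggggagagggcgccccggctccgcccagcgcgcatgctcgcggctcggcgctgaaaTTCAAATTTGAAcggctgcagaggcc
In PLK1 the CHR element starts at base -29 and the CCAAT box at -73, counted back from the start. ESPL1 has its CHR element at nearly the same place, at -31, and its CCAAT box, on the opposite strand, at -48. In HMMR a CCAAT box overlaps another on the opposite strand, at -69 and -66. HMMR and ANLN each carry a repeated element, at -28 and -22 in HMMR and at -26 and -20 in ANLN, where the first is on the opposite strand. KIF20A has CCAAT boxes at -94 and -67 and no TTTGAA, and CDCA5 has only the variant TTCGAA, at -26.

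The libraries held 35424086 to 41811165 counts on 28616 to 31034 genes, with 3.75% (Ctrl), 6.09% (RT) and 5.51% (RT + shHDAC6) of the counts on mitochondrially encoded genes. HDAC6 itself had 3098 counts (Ctrl), 2383 (RT) and 2170 (RT + shHDAC6), which left the knockdown library at 87.2% of RT (log2 ratio -0.20, 95% interval -0.28 to -0.11). With library totals the ratio was -0.11, so the RNA of the targeted gene was only slightly lower in the library labelled as its knockdown. The study itself reports lower HDAC6 mRNA by qPCR and lower HDAC6 protein by Western blot in its knockdown T24 cells. The 7 markers of the line were counted in all libraries, led by VIM with 74147 to 121716 counts, but KRT7 went from 3533 counts (Ctrl) and 3854 (RT) to 597 (RT + shHDAC6), 14.8% of RT after scaling. In contrast, the uroplakins UPK1A, UPK1B, UPK2 and UPK3A and KRT20, which mark differentiated urothelium, had 0 to 18 counts. The remaining urothelial markers, GATA3 and PPARG, were counted in all libraries. GATA3 had 2320 counts (Ctrl), 1423 (RT) and 709 (RT + shHDAC6), and PPARG 1298, 650 and 352. Their log2 ratios for RT + shHDAC6 against RT were -1.07 and -0.95. Summed over 7 urothelial differentiation markers the level was 80.2, 62 and 30.6 CPM (counts scaled to a common library size) in Ctrl, RT and RT + shHDAC6. Of these sums, GATA3 made up 51.2, 42.4 and 20.2 CPM and PPARG 28.6, 19.4 and 10.1 CPM. Among the 7 markers, 3, 2 and 1 were at 0. Markers of other cells summed to 8.11, 5.72 and 5.37 CPM for 5 leukocyte genes, 23.1, 14.5 and 19.2 CPM for 3 endothelial genes and 227, 153 and 188 CPM for 4 fibroblast genes, none of them at 0 in any library. Their part in the results below was not tested.

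All 49 members were well counted. They ranged from 502 to 32266 counts in Ctrl, from 372 to 25935 in RT and from 347 to 22122 in RT + shHDAC6, with medians of 6428, 4576 and 4552, and all passed the minimum of 30 counts over the 3 libraries that 18761 genes met. Levels are given below as CPM after TMM scaling, which sets the libraries to a common size from the bulk of their genes, and differences as log2 ratios of these levels. Each log2 ratio has a 95% exact binomial interval that covers counting error only, not the spread between replicate libraries. No molecular identifiers tell copies of 1 molecule apart, so the interval may be too narrow even for counting error. With 1 library per condition no difference had a replicate check and no p-value was computed. A gene was called higher or lower when its level differed by at least 1.5-fold, a log2 ratio of 0.58. In bulk RNA, a changed share of cells in G2 and mitosis and a changed amount of RNA per such cell cannot be told apart.

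Per kilobase of exon the median member lay at 33.6 RPKM (Ctrl), 33.8 (RT) and 31.8 (RT + shHDAC6). The highest were TPX2, the activator of Aurora A (129 RPKM in Ctrl), and the condensin subunit NCAPD2 (120 RPKM in RT). The lowest was PRC1, which bundles the microtubules of the central spindle, at 2, 2.01 and 1.79 RPKM. Of PRC1's exonic bases, 57.6% lie in exons of another gene on the same strand, and reads there may have been left out of its count. The sum over the 49 members was 9030 CPM (Ctrl), 9150 (RT) and 8370 (RT + shHDAC6).

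**Figure D1:**
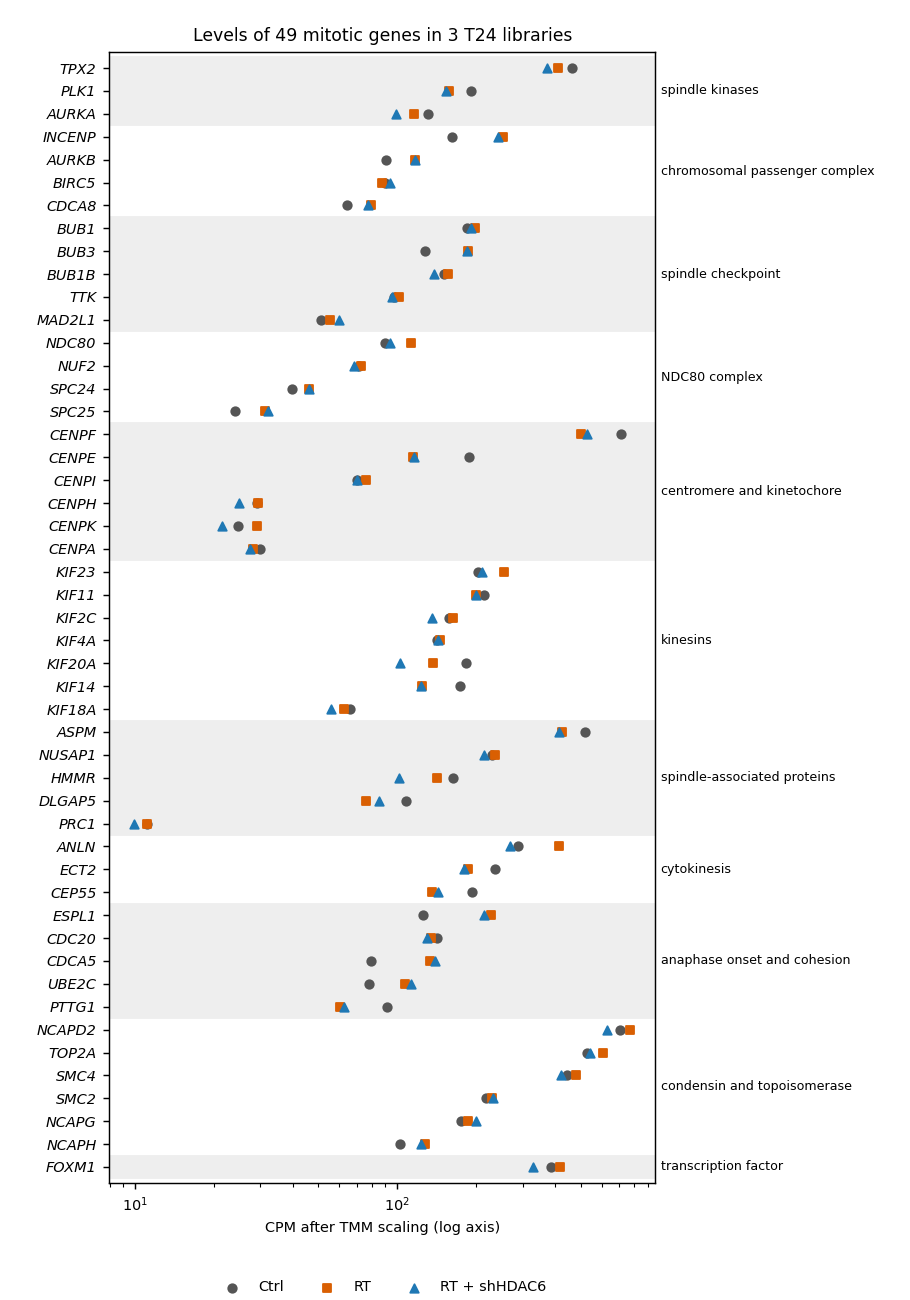
Level of each of the 49 members in CPM after TMM scaling (log axis) in the Ctrl, RT and RT + shHDAC6 libraries, 1 point per library, grouped by role. The 3 points of most genes lie close together, and ESPL1, CDCA5, INCENP and CENPE show the widest gaps between Ctrl and RT.

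In RT against Ctrl the mitotic genes lay on both sides of 0, with a spread no wider than that of all genes. ESPL1, CDCA5 and INCENP were at least 1.5-fold higher in RT than in Ctrl, and CENPE and PTTG1 were lower by as much. That was 3 of 49 members higher, where 14.8% of all genes were called higher, and 2 lower, where 17.4% were called lower. The median log2 ratio of the members was 0.058, with the middle 50% between -0.18 and 0.24 and the extremes at -0.71 and 0.87, beside a median of -0.028 over all genes; under scaling by library totals, which shifts every log2 ratio by -0.22, the members' median was -0.16 and that of all genes -0.25. Low-count genes carry a wider counting error, so the 9320 genes in the members' range of mean CPM were taken as a closer background. Of these, 17.4% were called higher and 5.45% lower, with a median of 0.11. Their middle 50% lay between -0.18 and 0.44, and that of all genes between -0.43 and 0.35.

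Differences below that size were common. The counting interval lay above 0 in 25 members and below 0 in 15, where 31.9% and 29.2% of all genes did so and 50.7% and 31.9% of those in the members' range of CPM. With the limit lowered to a log2 ratio of 0.32, 10 members were higher and 8 lower (26.6% and 30.9% of all genes), and at 2-fold no member was called in either direction (4.62% and 6.36%). By a Python re-implementation of the NOISeq rule, which compares each gene with simulated counting noise, 18 members were higher and 13 lower. That re-implementation called 19.2% of 32923 genes higher and 20.8% lower. The study's methods name this rule, but the numbers of genes called by the re-implementation differed from those the study reports. The NOISeq counts here and below may therefore not be what the authors' own run gives.

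With HDAC6 knocked down under irradiation, the members spanned log2 ratios from -0.62 to 0.17. ANLN was the 1 member below RT by 1.5-fold or more. Of all genes 9.42% were called lower, and of those in the members' range of CPM 3.85%. No member was called higher, where 8.95% of all genes and 1.44% of those in that range were. The members' median log2 ratio was -0.053, 15 members lying above 0 and 34 below, beside a median of -0.0066 over all genes. Scaling by library totals, a shift of 0.084, put the members' median at 0.031 and that of all genes at 0.077. The counting interval lay below 0 in 25 members, 51% of them, and above 0 in 8 (16.3%). Over all genes these shares were 24.4% and 19.5%, and over genes in the members' range of CPM 35.8% and 27.2%. At a limit of 0.32, 5 members were lower and 0 higher (19.2% and 17.8% of all genes), at 2-fold 0 and 0 (4.26% and 3.35%), and by NOISeq 17 lower and 1 higher (14.8% and 12.6% of 31682 genes).

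The comparison of RT + shHDAC6 with Ctrl shares a library with each of the others and is given for completeness. CDCA5 and ESPL1 were called higher (2 members, 13.8% of all genes) and KIF20A, CENPE and HMMR lower (3 members, 17.4% of all genes), with a median of -0.10 beside -0.026 over all genes. Next in order came INCENP (0.57), BUB3 (0.54) and UBE2C (0.54) above Ctrl, and PTTG1 (-0.54) and KIF14 (-0.50) below it. Of genes in the members' range of CPM, 13.9% were called higher and 7.29% lower at 1.5-fold. The interval lay above 0 in 16 members and below in 26 (31.7% and 29.6% of all genes). At a limit of 0.32, 7 were higher and 11 lower (26.6% and 29.8%), at 2-fold 0 and 0 (4.44% and 7.82%), and by NOISeq 12 and 22 (19.3% and 20.6% of 33073 genes).

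Which library held a member's highest level depended on the scaling, a comparison added after the data were seen. After TMM, 23 members were highest in RT, 17 in Ctrl and 9 in RT + shHDAC6, where 29.8%, 42.2% and 28% of all genes were. With library totals 5 were highest in RT, 33 in Ctrl and 11 in RT + shHDAC6 (17.8%, 55.1% and 27.1% of all genes). RT + shHDAC6 held the lowest level of 24 members after TMM (30.7% of all genes), and of 21 to 24 members over the 4 scalings.

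**Figure D2:**
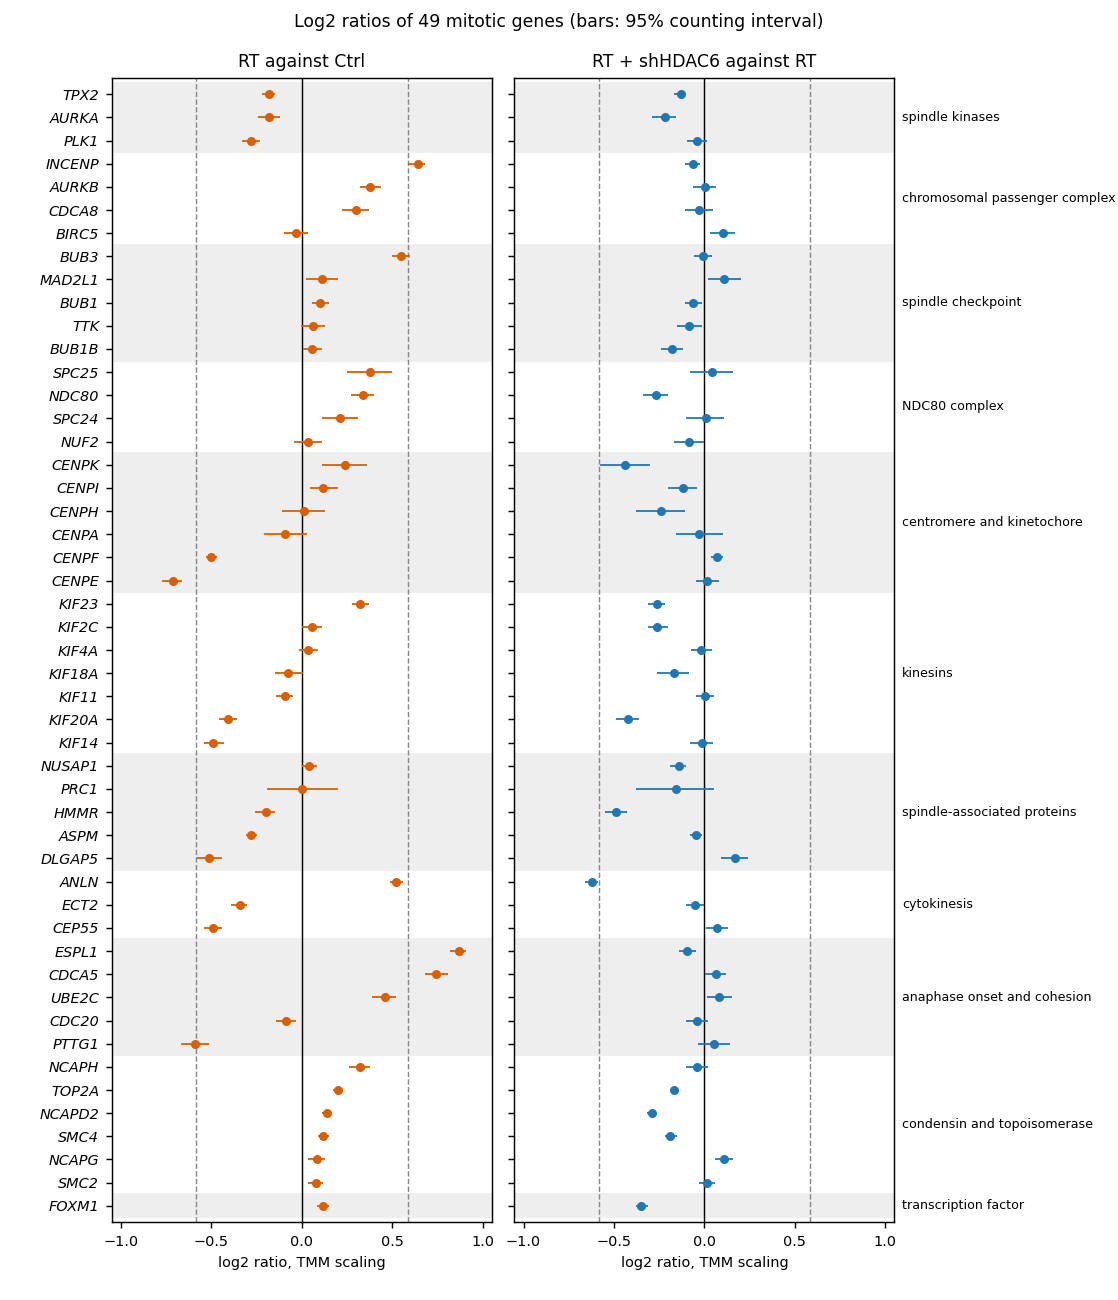
Log2 ratio of each of the 49 members after TMM scaling, RT against Ctrl (left) and RT + shHDAC6 against RT (right), with 95% counting intervals as bars and dashed lines at 1.5-fold. In RT against Ctrl 3 members lie beyond the right line and 2 beyond the left, and in RT + shHDAC6 against RT only ANLN lies beyond a line.

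The spindle kinases and their activator were lower in RT. AURKA, the kinase of centrosome maturation and spindle assembly, measured 131 CPM (Ctrl), 116 (RT) and 99 (RT + shHDAC6), with log2 ratios of -0.18 (-0.24 to -0.12) for RT against Ctrl and -0.22 (-0.29 to -0.16) for RT + shHDAC6 against RT. Each step was downward, and the knockdown library stood at 75.5% of Ctrl. PLK1, which acts in mitotic entry, spindle assembly and cytokinesis, measured 191, 157 and 153 CPM, a log2 ratio of -0.28 (-0.33 to -0.23) in RT; the interval for the knockdown, -0.095 to 0.016, included 0. TPX2 measured 463, 408 and 372 CPM (-0.18 and -0.13). All 3 were below 0 in both comparisons, by less than 1.5-fold, except that PLK1 turns above 0 with the knockdown under library totals. Of PLK1's exonic bases, 12.8% overlap exons on the other strand.

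The chromosomal passenger complex, which corrects faulty attachments of chromosomes to the spindle and later works at the midzone, was mostly higher in RT: 3 of its 4 genes lay above 0 under each of the 4 scalings. Its scaffold INCENP (ENSG00000149503.12, chromosome 11, 62123998 to 62153169, GRCh38, plus strand) had 7366 counts (Ctrl), 8468 (RT) and 8450 (RT + shHDAC6), or 162, 252 and 241 CPM. Both irradiated libraries were above Ctrl. The log2 ratio for RT was 0.64 (0.59 to 0.68), or 1.55-fold, and it was under the 1.5-fold limit with library totals (0.42) and with upper quartile factors (0.58). AURKB, the kinase of the complex, measured 90.1, 117 and 117 CPM, 1.3-fold higher in RT (0.38, 0.32 to 0.44) with a knockdown ratio of 0.0029 (-0.061 to 0.066). CDCA8 (borealin) measured 64.4, 79 and 77.3 CPM (0.30 in RT). BIRC5 (survivin), the subunit that reads the mitotic histone mark at centromeres, stood apart at 89.4, 87.4 and 93.7 CPM, with log2 ratios of -0.032 (-0.10 to 0.037) and 0.10 (0.028 to 0.17).

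The ratio of 2 genes' counts within a library does not depend on how libraries are scaled, so the subunits were also set against each other. Such pairs were chosen after their values were seen, and their 95% intervals again cover counting error alone. INCENP to BIRC5 was 1.82 (Ctrl), 2.89 (RT) and 2.58 (RT + shHDAC6), a log2 change of 0.67 (0.59 to 0.75) in RT. AURKB to AURKA was 0.686, 1.01 and 1.19, a change of 0.56 (0.48 to 0.65) in RT and a further 0.23 (0.14 to 0.32) with the knockdown. The ratio of these 2 RNAs differed between all 3 libraries by more than counting error.

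The 5 spindle checkpoint genes, which hold back anaphase until every chromosome is attached, were all above 0 in RT against Ctrl, with a median of 0.10; under library totals 4 of them turn below 0 and BUB3 stays above. BUB3, an adaptor shared by several checkpoint complexes, measured 127, 186 and 185 CPM, a log2 ratio of 0.55 (0.50 to 0.60) in RT, which is 1.47-fold and just under the limit. With median-of-ratios factors it was 0.61 and passed. BUB1, a checkpoint kinase at kinetochores, measured 185, 198 and 190 CPM, with log2 ratios of 0.10 (0.054 to 0.15) and -0.061 (-0.11 to -0.011). BUB1B, an inhibitor of the anaphase-promoting complex, measured 150, 156 and 138 CPM (0.058, and -0.18 with the knockdown), and TTK, the kinase that starts checkpoint signalling, 97, 101 and 95.5 CPM (0.063 and -0.086). MAD2L1, which sequesters CDC20, measured 51.2, 55.4 and 59.9 CPM and was among the 5 highest members with the knockdown (0.11, 0.022 to 0.20). The count ratio of BUB3 to BUB1, which the scaling does not touch, was 0.688 (Ctrl), 0.941 (RT) and 0.976 (RT + shHDAC6) (0.45, 0.38 to 0.52, in RT).

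The NDC80 complex is the main microtubule coupler of the kinetochore, and its 4 subunits are found in equal numbers in the complex. Their levels per kilobase of exon differed: NDC80 lay at 25.2 RPKM in Ctrl, NUF2 at 21.2, SPC24 at 14 and SPC25 at 13.2. These values divide by all annotated exons of a gene, not by the transcript expressed. Whether the RNAs were unequal in number was therefore not tested. In RT against Ctrl the log2 ratios were 0.34 for NDC80 (0.27 to 0.40), 0.032 for NUF2 (-0.044 to 0.11), 0.21 for SPC24 (0.11 to 0.31) and 0.38 for SPC25 (0.25 to 0.50). All 4 were above 0 there, but NUF2 and SPC24 turn below 0 under library totals. NDC80 measured 89.5, 113 and 93.7 CPM and had the lowest knockdown ratio of the 4 (-0.27, -0.34 to -0.20), followed by NUF2 (-0.087, -0.17 to -0.0052), while the intervals of SPC24 and SPC25 included 0. SPC25 to NUF2, which belong to the inner and the outer dimer of the complex, was 0.339, 0.43 and 0.47 in counts of Ctrl, RT and RT + shHDAC6.

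Among the centromere and kinetochore proteins, the 2 largest, which build the outermost layer of the kinetochore, were lower in RT. CENPE (ENSG00000138778.11, chromosome 4, 103105349 to 103198445, minus strand), a motor that moves chromosomes to the spindle equator, had 8539 counts (Ctrl), 3850 (RT) and 4063 (RT + shHDAC6), or 188, 115 and 116 CPM. RT and RT + shHDAC6 were nearly level and both well below Ctrl. Its log2 ratio of -0.71 (-0.77 to -0.66) was the lowest of the 49 in RT, and the knockdown ratio was 0.016 (-0.048 to 0.08). CENPF, a large protein of the outer kinetochore, measured 711, 503 and 527 CPM (-0.50, -0.53 to -0.47, in RT); it reached the 1.5-fold limit only with library totals (-0.72). The inner kinetochore genes behaved otherwise. CENPA, the centromeric histone, measured 30, 28.1 and 27.5 CPM, with intervals that included 0 in both comparisons. CENPI, CENPH and CENPK, subunits of 1 inner kinetochore complex, were at 0.12, 0.011 and 0.24 in RT against Ctrl and at -0.12, -0.24 and -0.44 in RT + shHDAC6 against RT. CENPK, at 24.7, 29.1 and 21.4 CPM, was the third lowest of the 49 with the knockdown (-0.58 to -0.30), on 976 counts in RT and 750 in RT + shHDAC6.

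The 7 kinesins ranged from -0.49 to 0.32 in RT against Ctrl. KIF14 and KIF20A, which both act in cytokinesis, were the lowest: KIF14 measured 174, 124 and 123 CPM (-0.49, -0.54 to -0.43, in RT) and KIF20A 182, 137 and 102 CPM. KIF20A (ENSG00000112984.11, chromosome 5, 138178719 to 138187723, plus strand) had 8264, 4597 and 3583 counts. Its log2 ratio was -0.41 (-0.46 to -0.36) in RT and -0.42 (-0.49 to -0.36) with the knockdown, so that RT + shHDAC6 stood at 56.2% of Ctrl, the lowest of all members in that comparison (-0.83, -0.89 to -0.78). KIF23, the motor of the centralspindlin complex at the same midzone, measured 203, 254 and 211 CPM, higher in RT (0.32, 0.28 to 0.37) and lower again with the knockdown (-0.26, -0.31 to -0.22). The count ratio of KIF23 to KIF20A was 1.11 (Ctrl), 1.85 (RT) and 2.07 (RT + shHDAC6), a log2 change of 0.73 (0.67 to 0.80) in RT. KIF11, the motor that pushes spindle poles apart and the target of several antimitotic compounds, measured 213, 199 and 200 CPM, with log2 ratios of -0.094 (-0.14 to -0.049) and 0.0029 (-0.046 to 0.052). KIF2C, which depolymerises microtubules, was at 0.054 in RT and at -0.26 (-0.31 to -0.20) with the knockdown. KIF18A, which dampens the swings of chromosomes, measured 66, 62.7 and 55.6 CPM, and the chromosome-bound motor KIF4A 142, 145 and 143 CPM; reads of the near-identical copy KIF4B (77, 43 and 37 counts) may be shared with KIF4A.

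Of the 5 spindle-associated proteins, DLGAP5, which stabilises microtubules near chromosomes, measured 108, 75.8 and 85.1 CPM. It was lower in RT (-0.51, -0.58 to -0.44) and the highest of the 49 with the knockdown (0.17, 0.09 to 0.24). HMMR (ENSG00000072571.19, chromosome 5, 163460203 to 163491941, plus strand), a hyaluronan receptor that also binds spindle microtubules, had 7385, 4744 and 3527 counts, or 163, 141 and 101 CPM. It was 1 of the 2 lowest members with the knockdown (-0.49, -0.55 to -0.43), ANLN being the other, and lay at -0.69 (-0.75 to -0.63) against Ctrl. DLGAP5 to HMMR, a ratio that scaling cannot change, went from 0.664 in Ctrl to 0.536 in RT and 0.845 in RT + shHDAC6 (knockdown change 0.66, 0.56 to 0.76). ASPM, which focuses spindle poles, measured 518, 426 and 413 CPM (-0.28 in RT). NUSAP1, a bundler of microtubules, measured 229, 236 and 214 CPM, with 86.8% of its exonic bases also in exons of another gene on its strand, and PRC1, at 11.1, 11.1 and 9.91 CPM, had intervals from -0.19 to 0.20 and from -0.38 to 0.052.

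The 3 cytokinesis genes went apart. ANLN (ENSG00000011426.10, chromosome 7, 36389821 to 36453791, plus strand), the scaffold of the contractile ring, had 13049 counts (Ctrl), 13848 (RT) and 9381 (RT + shHDAC6), or 288, 413 and 268 CPM. RT stood alone above the other libraries. Its log2 ratio was 0.52 (0.49 to 0.56) in RT and -0.62 (-0.66 to -0.59) with the knockdown, the lowest of the 49, and -0.10 between RT + shHDAC6 and Ctrl. With library totals the knockdown ratio was -0.54, which is under the limit. ECT2, the exchange factor that activates RhoA at the cleavage plane, measured 236, 186 and 179 CPM (-0.34 and -0.053), and CEP55, which recruits the machinery of abscission, 192, 136 and 143 CPM (-0.49, -0.54 to -0.44, in RT and 0.069 with the knockdown). Within libraries ANLN to CEP55 was 1.5 (Ctrl), 3.03 (RT) and 1.87 (RT + shHDAC6), a log2 change of 1.01 (0.95 to 1.08) in RT and of -0.69 (-0.76 to -0.62) with the knockdown. ANLN to ECT2 was 1.22, 2.22 and 1.5.

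The genes of anaphase onset and cohesion held the highest and the second lowest log2 ratio of RT against Ctrl. ESPL1 (ENSG00000135476.11, chromosome 12, 53268299 to 53293638, plus strand) encodes separase, the protease that cuts cohesin. It had 5675 counts (Ctrl), 7645 (RT) and 7473 (RT + shHDAC6), or 125, 228 and 213 CPM, and was the highest of the 49 in RT (0.87, 0.82 to 0.91, 1.82-fold). PTTG1 (ENSG00000164611.12, chromosome 5, 160421855 to 160428739, plus strand) encodes securin, which holds separase inactive. It had 4134, 2030 and 2196 counts, or 91.2, 60.5 and 62.7 CPM, a log2 ratio of -0.59 (-0.67 to -0.51) in RT that just passed 1.5-fold and did not with median-of-ratios factors (-0.53). Both irradiated libraries were above Ctrl for separase and below it for securin. The near-identical copies PTTG2 and PTTG3P had at most 7 counts. The count ratio of ESPL1 to PTTG1 was 1.37 (Ctrl), 3.77 (RT) and 3.4 (RT + shHDAC6), a log2 change of 1.46 (1.36 to 1.55) or 2.74-fold in RT. With the knockdown it changed by -0.15 (-0.24 to -0.048).

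CDCA5 (ENSG00000146670.9, chromosome 11, 65066300 to 65084164, minus strand) encodes sororin, which protects cohesin on chromosomes until anaphase. It had 3603, 4462 and 4871 counts, or 79.4, 133 and 139 CPM, with log2 ratios of 0.74 (0.68 to 0.81) in RT and 0.064 (0.0055 to 0.12) with the knockdown. It was highest in RT + shHDAC6 and, at 0.81 (0.75 to 0.87), led the comparison of that library with Ctrl; with library totals its RT ratio was 0.53, under the limit. The anaphase-promoting complex was represented by its activator CDC20 and its ubiquitin-conjugating enzyme UBE2C. CDC20 measured 142, 134 and 130 CPM (-0.086, -0.14 to -0.03, in RT, and -0.039, -0.10 to 0.021, with the knockdown) and UBE2C 78.1, 107 and 113 CPM (0.46, 0.39 to 0.52, in RT and 0.08, 0.014 to 0.15, with the knockdown). UBE2C to CDC20 was 0.551, 0.803 and 0.872.

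**Figure D3:**
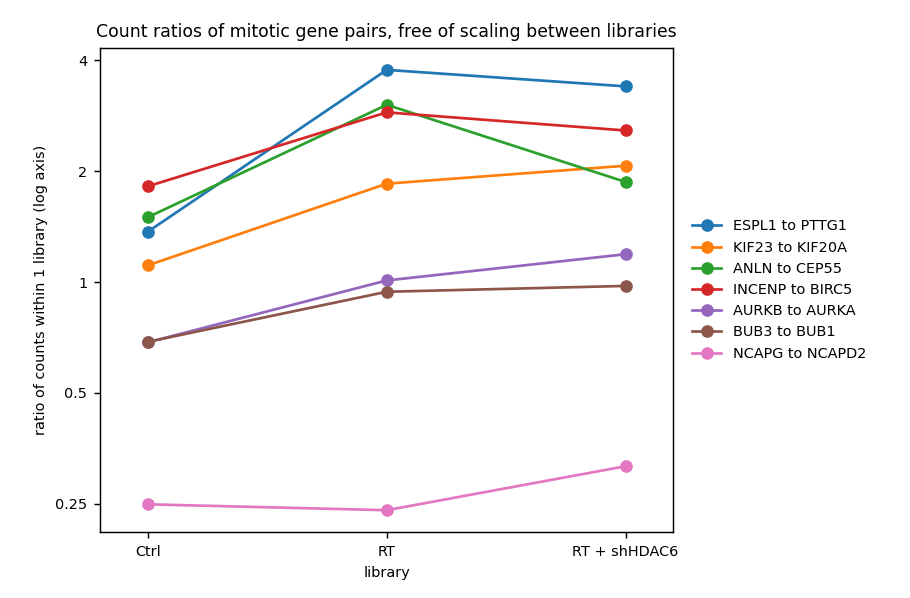
Ratio of the counts of 2 members within each library (log axis) for 7 pairs, a measure that scaling between libraries cannot change. ESPL1 to PTTG1 goes from 1.37 in Ctrl to 3.77 in RT and 3.4 in RT + shHDAC6, and ANLN to CEP55 is highest in RT, at 3.03.

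Condensin I and topoisomerase II alpha compact and disentangle chromosomes. All 6 of these genes lay above 0 in RT against Ctrl, with a median of 0.13 and intervals above 0; under library totals 5 of them turn below 0, and NCAPH stays above. TOP2A measured 529, 608 and 542 CPM, a log2 ratio of 0.20 (0.17 to 0.23) in RT and of -0.17 (-0.19 to -0.14) with the knockdown. NCAPD2, with 31889, 25935 and 22122 counts 1 of the 2 most counted members in Ctrl, measured 703, 773 and 632 CPM (0.14, and -0.29 with the knockdown, -0.32 to -0.27). NCAPH measured 102, 127 and 123 CPM (0.32 in RT). SMC2 and SMC4, the ATPase pair of the complex, were at 0.08 and 0.12 in RT and at 0.016 and -0.19 with the knockdown, and NCAPG, at 175, 186 and 200 CPM, at 0.083 (0.035 to 0.13) and 0.11 (0.057 to 0.16). The ratio of NCAPG to NCAPD2 counts was 0.249 (Ctrl), 0.24 (RT) and 0.316 (RT + shHDAC6), a knockdown change of 0.40 (0.34 to 0.45) between subunits of 1 complex. NCAPG and SMC4 share 33.7% and 22% of their exonic bases with exons on the other strand.

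FOXM1 (ENSG00000111206.12, chromosome 12, 2857680 to 2877174, minus strand) had 17445 counts (Ctrl), 13975 (RT) and 11475 (RT + shHDAC6), or 385, 417 and 328 CPM. It was slightly higher in RT (0.12, 0.083 to 0.15), which library totals turn below 0, and at -0.35 (-0.38 to -0.31) with the knockdown, or 78.7% of RT, among the 5 lowest members together with ANLN, HMMR, CENPK and KIF20A. Of its exonic bases, 15.9% overlap exons on the other strand.

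Members with and without TTTGAA or CCAAT overlapped over most of their ranges. In RT against Ctrl the median log2 ratio was 0.04 for the members with TTTGAA (-0.51 to 0.87) and 0.12 for those without it (-0.71 to 0.74), and 0.02 and 0.08 with and without CCAAT. With the knockdown the medians were -0.05 and -0.04 with and without TTTGAA, and -0.04 and -0.12 with and without CCAAT. For GGGCGG the medians with and without it were -0.04 and 0.11 in RT and -0.04 and -0.10 with the knockdown. The rarer motifs rest on few members: the 3 with TTCGAA lay at 0.10 to 0.74 in RT (median 0.34, against 0.05 for the others), and the 5 with TTCCCGC at -0.03 to 0.11 with the knockdown (median 0.06, against -0.06 for the others, which ranged from -0.62 to 0.17). PLK1 and ESPL1, whose CHR elements lie at nearly the same place, stood at -0.28 and 0.87 in RT. Of the 4 members that hold neither TTTGAA nor CCAAT, CENPE stood at -0.71, KIF2C at 0.054, CENPI at 0.12 and CDCA5, which has the variant TTCGAA, at 0.74.

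Related genes outside the list were counted the same way. In RT against Ctrl 14.8% of all genes were called higher and 17.4% lower, and with the knockdown 8.95% and 9.42%. Of 30 other kinetochore genes, 4 were called higher (13.3%) and 0 lower in RT against Ctrl. Their median was 0.25, above 0 under each of the 4 scalings, and the extremes were SKA2 (-0.53) and CENPM (0.93). Of 15 other condensin and cohesin genes, 3 were higher (20%) and 2 lower (13.3%), with a median of -0.064, below 0 under each of the 4 scalings. SMC1A, the cohesin ATPase, was at 1.01 (0.98 to 1.04) with 13969, 20771 and 21059 counts, whereas RAD21, the cohesin subunit that separase cuts, was at -0.66 (-0.70 to -0.62) with 17533, 8192 and 8176. Of 27 spindle pole and other spindle genes, 3 were higher (11.1%) and 0 lower, with a median of 0.17, below 0 with library totals. They were led by HAUS7 (1.24, on 32, 56 and 44 counts only) and PCNT (0.70). With the knockdown no gene of these 3 lists was called in either direction. Of genes in the members' range of CPM, 1.44% were called higher and 3.85% lower there.

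The regulators of mitotic entry and exit lay on both sides of 0, like the members. CCNB1, the main mitotic cyclin, had 8918, 4583 and 4688 counts (-0.53 in RT, -0.58 to -0.47) and CCNB2 4804, 2366 and 2424 (-0.59, -0.66 to -0.52). Their kinase CDK1 had 4133, 4902 and 5659 counts and was higher in RT (0.68, 0.62 to 0.74). PKMYT1, a kinase that inhibits CDK1, had 1677, 3894 and 3635 counts and a log2 ratio of 1.65 (1.57 to 1.73). Over these 15 genes 2 were called higher (13.3%, beside 14.8% of all genes) and 1 lower (6.67%, beside 17.4%) in RT. The median was 0.12, below 0 with library totals. In the knockdown CDC25C, a phosphatase that activates CDK1, was lowest at -0.39 (-0.52 to -0.26) and none was called.

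Of 16 MuvB, E2F and NF-Y regulators, 1 was called higher in RT (E2F8, 0.80) and 1 with the knockdown (LIN52, a MuvB subunit, 0.61, 0.41 to 0.81). That was 6.25% each time, beside 14.8% and 8.95% of all genes. The medians were 0.21 and 0.041, of which the first turns below 0 with library totals. The 25 G1/S genes, which peak at the start of DNA replication, differed most from the members in RT, and 23 of 25 lay above 0. Of them, 6 were called higher (24%, beside 14.8% of all genes) and 0 lower (17.4% of all genes). The median was 0.40, above 0 under each of the 4 scalings, beside 0.058 for the members. RRM2, the small subunit of ribonucleotide reductase, led them at 0.91 (0.85 to 0.97), with 4172, 5804 and 6135 counts. Lists describe these libraries only, and no test of the difference between lists was made.

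**Figure D4:**
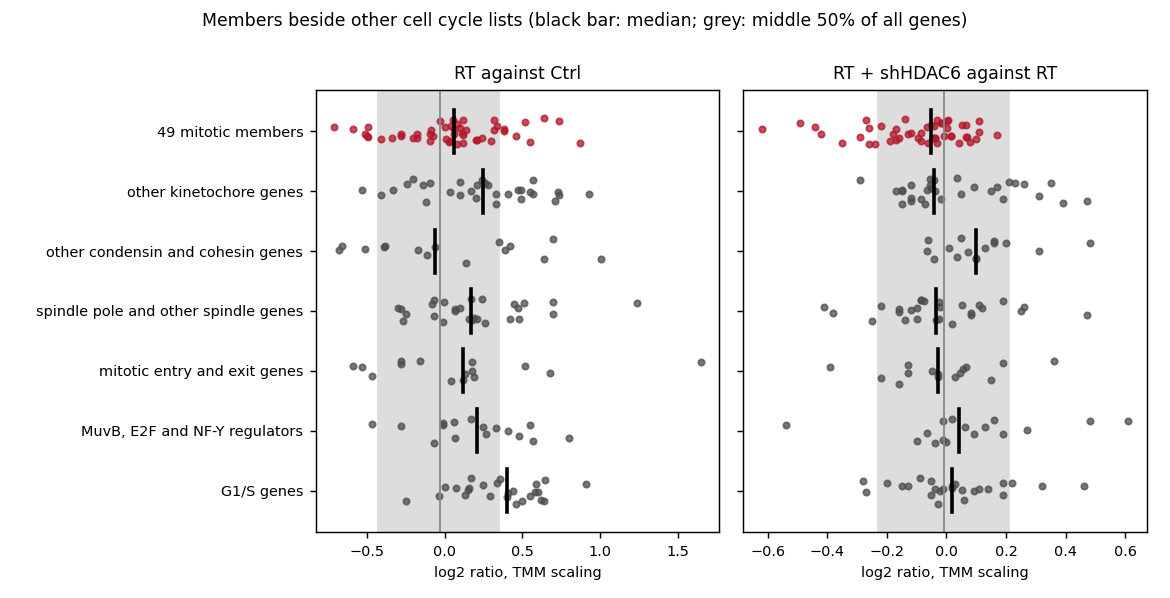
Log2 ratios after TMM scaling of the 49 members (red) and of the genes of 6 related lists (grey points, 1 per gene), RT against Ctrl (left) and RT + shHDAC6 against RT (right), with the list median as a black bar, the middle 50% of all genes as a grey band and the median of all genes as a grey line. In RT against Ctrl the G1/S genes have the highest median, 0.40, beside 0.058 for the members.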

How the data were processed

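Reads were trimmed (cutadapt), mapped by STAR (2.6.1a in the submitters' processing notes) on GRCh38 and assigned by featureCounts to genes of GENCODE release 28; what the authors deposited are the raw read counts, not normalised. The strand setting and the handling of multi-mapping reads are not given in the sources used here, and the library kit differs between the labels and the methods. Symbols were matched by gene identifier (57754 of 58381), and positions and exon lengths were taken from GENCODE release 44.

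Counts were scaled by TMM (edgeR 4.0.16, R 4.3.3), as in the study's methods. Log2 ratios were computed for genes with at least 30 counts over the 3 libraries, with 95% Clopper-Pearson intervals (scipy 1.17.1). Total counts were 41811165 (Ctrl), 35959265 (RT) and 35424086 (RT + shHDAC6), and the limit of 3 counts that a count of 0 allows equals 0.0662, 0.0894 and 0.0857 CPM. RPKM was computed from the scaled counts and the union of exons. The study's methods call genes by NOISeq at a probability over 0.4; a 1.5-fold rule was the main one here and a Python re-implementation of NOISeq an alternative, beside other scalings (DESeq2 1.42.0 for median of ratios), filters and folds. The steps were tested on simulated data.

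The members and the lists were chosen with earlier results of these data known. Full values were given for FOXM1, AURKA, AURKB, PLK1, BUB1, CDC20, BIRC5, TOP2A and KIF11, the 5 highest and 5 lowest members of each comparison and every called member; of other lists, at most the 2 highest and 2 lowest genes were named.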

Additional observations from a re-analysis of the deposited data

How the results depend on the processing

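With 1 library per condition no replicate could be left out. No paired analysis was possible because the groups hold 1 library each. Scaling moved the medians and the split of directions. With library totals, 1 member was higher and 7 lower in RT against Ctrl (median -0.16), 0 were lower in RT + shHDAC6 against RT (median 0.031), and 5 were lower in RT + shHDAC6 against Ctrl (median -0.23), so that the first 2 medians changed sign; all genes shifted alike, with 1546 higher and 5299 lower in RT against Ctrl in place of 2777 and 3272, and 1793 and 4282 in RT + shHDAC6 against Ctrl in place of 2580 and 3267. CENPF (-0.72), KIF14 (-0.70), KIF20A (-0.63), CEP55 (-0.71) and DLGAP5 (-0.73) then passed 1.5-fold in RT. Upper quartile factors gave a median of 0.0016 in RT against Ctrl. Median-of-ratios factors gave a median of 0.12 and 1 lower member there, and 5 higher members in RT + shHDAC6 against Ctrl. Across the 4 scalings 30 of 49 members kept their direction in RT against Ctrl, 34 in RT + shHDAC6 against RT and 40 in RT + shHDAC6 against Ctrl. Minimums of 1 or 300 counts could change no member count, because every member had at least 347 counts in each library.

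The call rule set the member counts. At 2-fold they were 0 in each comparison and direction. At a log2 limit of 0.32 they were 10 higher and 8 lower, 0 and 5, and 7 and 11, in the order RT against Ctrl, RT + shHDAC6 against RT, and RT + shHDAC6 against Ctrl. With the interval on 1 side of 0 they were 25 and 15, 8 and 25, and 16 and 26, and with NOISeq 18 and 13, 1 and 17, and 12 and 22. The members' intervals had a median half-width of 0.054 to 0.06 on the log2 scale. They were wider for members with few counts, such as PRC1 (-0.38 to 0.052) and CENPK (-0.58 to -0.30) in RT + shHDAC6 against RT.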
